A study of Homo sapiens with 9 samples.

Results

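The ubiquitin feedback regulators of NF-kB and the IKK kinases were followed as a set of 10 genes in the human B-cell line BJAB: TNFAIP3 (A20), TNIP1, TNIP2, TAX1BP1, CYLD, OTUD7B, CHUK, IKBKB, IKBKG and IER3. They were taken by matching Ensembl gene IDs to symbols, and all 10 were found among the 57500 genes of the count files. BJAB is an established cell line, labelled as Burkitt lymphoma. TACI, the product of TNFRSF13B, is a receptor on B cells that B cells make in a long and a short form. The groups were BJAB cells given the short isoform (TACI short, 3 libraries), BJAB cells given the long isoform (TACI long, 3 libraries) and the BJAB line itself (control, 3 libraries), all labelled untreated. The titles speak of stable transfection and the design text of transduction; the vector, its promoter and whether a line is 1 clone are not given in the sources used here. The control is the line itself, and no cells given an empty vector are among the samples. The question set by the design was how the transcripts of untreated cells given each isoform differ from those of the line itself.

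In this pathway, receptors build ubiquitin chains that recruit the IKK complex, which holds the kinases CHUK (IKK-alpha) and IKBKB (IKK-beta) and the regulatory subunit IKBKG (NEMO); the complex marks the IkB inhibitors for destruction and so frees NF-kB. A20 and CYLD edit or remove those chains, and the ABIN proteins TNIP1 and TNIP2 and the adaptor TAX1BP1 work with A20. In B cells A20 is itself an NF-kB target, so the brake is made in response to the signal it limits, and its loss is known from B-cell lymphomas.

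The libraries held between 40322136 and 50079203 counts. In TACI short replicates 2 and 3, 32882 and 32209 genes had at least 1 count, against 24307 to 25938 in the other 7 libraries, and these replicates also held more counts of myeloid markers (values are given with IER3). B-cell markers fixed as a list of 7 summed to 3070 to 3210 CPM (the count scaled to the library's total) in TACI short, 3310 to 3350 CPM in TACI long and 3710 to 3840 CPM in control, and none was at 0 in any library. TNFRSF13B stood at 2964, 2965 and 2655 CPM in TACI short, 691.2, 704.5 and 737.6 CPM in TACI long and 28.8, 15.22 and 14.55 CPM in control. The isoform and the amount of TNFRSF13B RNA therefore cannot be told apart in any comparison. The labels do not state that replicates are separate cultures, and p-values then rest on differences between libraries that may be no more than technical repeats. In bulk RNA, fewer cells of a type and less RNA per cell cannot be told apart.

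TNFAIP3, TNIP1, TNIP2 and CYLD were higher in TACI short cells than in control, TNFAIP3 by 11.2-fold and the others by 1.29-fold to 2.17-fold, while CHUK and IKBKG were lower by 1.3-fold and 1.31-fold. In TACI long cells TNFAIP3 and TNIP1 stayed within 0.39 of control on the log2 scale at the bounds of their intervals, CYLD was higher by 1.2-fold, and TNIP2 and IKBKB were lower by 1.39-fold and 1.3-fold. Fold changes come from 1 edgeR quasi-likelihood fit over all 9 libraries, with Benjamini-Hochberg adjustment over the 16672 genes tested and a threshold of 0.05. All 10 members passed the filter on low counts. In TACI short over control, 5 of the 10 were called higher, against 31.5% of all genes tested, and 2 were called lower, against 31.1%. The CPM of the groups did not overlap for 8 of the 10, against 66.4% of all genes. With CPM rescaled by the factors of the fit, TAX1BP1 and IKBKB, which are among those 8, did overlap. In TACI long over control, 1 was called higher, against 25.2% of all genes, and 2 lower, against 25.9%; groups did not overlap for 6, against 60.7%. In TACI short over TACI long, 6 were called higher, against 35.2% of all genes, and 2 lower, against 33.6%; groups did not overlap for 8, against 71.6%. The members' median log2 fold change was 0.22 in TACI short over control, against 0.03 over all genes, -0.04 in TACI long over control, against 0.00, and 0.34 in TACI short over TACI long, against 0.05. Both comparisons with control share the control libraries, and no test here sets the counts of 10 members apart from the shares of all genes.

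**Figure D1:**
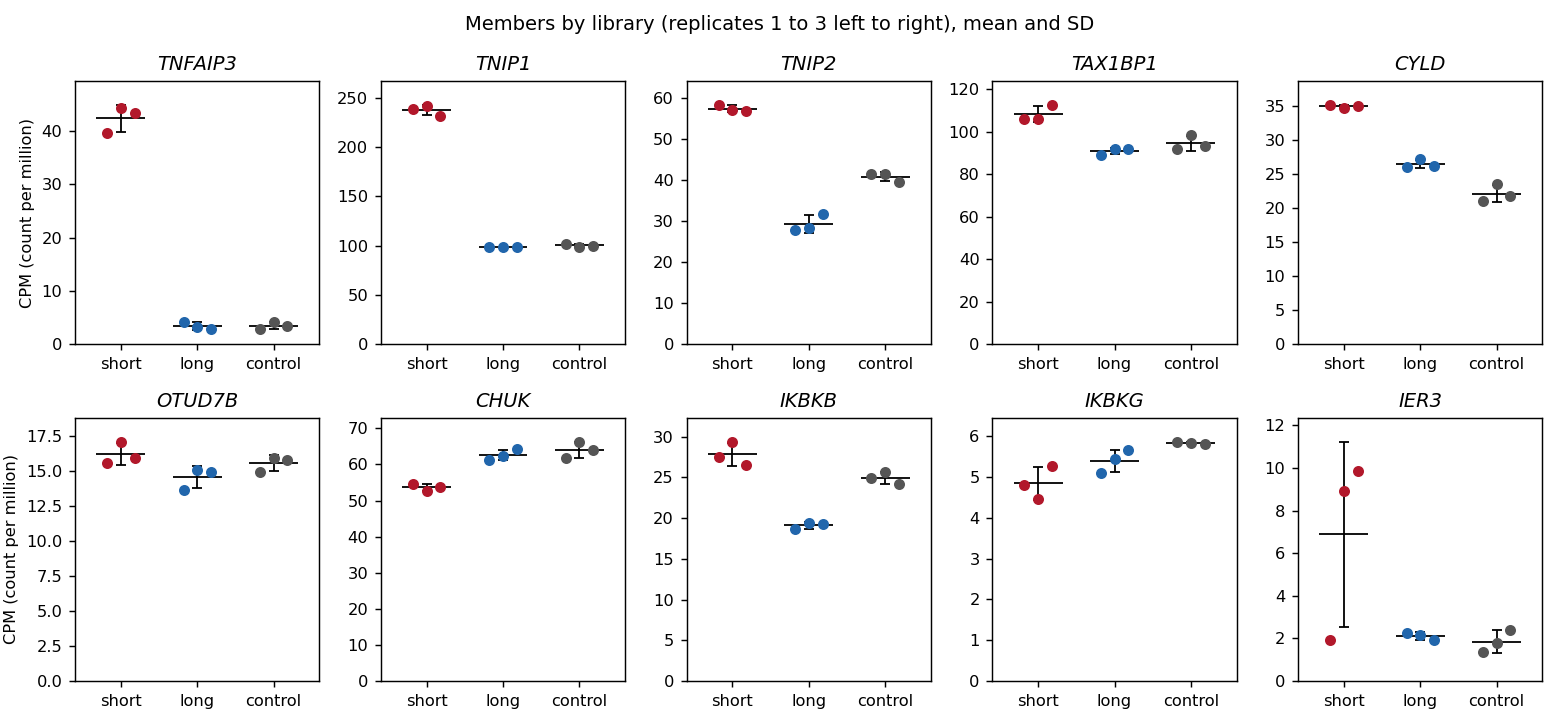
CPM of each of the 10 members in every library, 1 panel a gene with its own axis from 0; points are replicates 1 to 3 from left to right, the line is the mean and the bar the SD of 3 libraries. The 3 TACI short points of TNFAIP3 and TNIP1 lie far above the other 6, TNIP2 is lowest in TACI long, and IER3 is high in only 2 of the 3 TACI short libraries.

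TNFAIP3 encodes A20, an OTU-family deubiquitinase with zinc fingers that disassembles ubiquitin chains on signalling proteins upstream of IKK (ENSG00000118503, hg38 chromosome 6, 137867188 to 137883312, plus strand). It stood at 39.6, 44.34 and 43.37 CPM in TACI short, 4.23, 3.312 and 2.851 CPM in TACI long and 2.848, 4.225 and 3.365 CPM in control. Every TACI short library lay above every other library, and TACI long and control overlapped. The mean was 42.44 ± 2.5 CPM in TACI short, 3.464 ± 0.702 CPM in TACI long and 3.479 ± 0.695 CPM in control (SD, n = 3 each). TACI short exceeded control by a log2 fold change of 3.48 ± 0.15 (SE; edgeR adjusted p = 6.67e-08), the 177th highest of the 16672 genes tested. It exceeded TACI long by the same 3.48 ± 0.15 (edgeR adjusted p = 4.9e-08). TACI long over control was 0.998-fold, with a 95% interval of -0.39 to 0.39 on the log2 scale (edgeR adjusted p = 0.993), so a change of up to about that size in either direction was not resolved. With TACI short replicate 1 as the only TACI short library, the log2 fold change over control was 3.42.

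WAKMAR2, an antisense RNA that shares 95 exon bases (1.88%) with TNFAIP3, stood at 2.03, 2.55 and 2.02 CPM in TACI short, 0.142, 0.329 and 0.255 CPM in TACI long and 0.261, 0.161 and 0.3 CPM in control. It was singled out after its values were seen. The libraries do not mark strand, so reads in the shared bases cannot be assigned to one of them. The part of such reads in either level was not tested.

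The A20 partners came next. TNIP1 encodes ABIN1, which binds A20 and ubiquitin chains (ENSG00000145901, chromosome 5, 151029945 to 151093577, minus strand). It had 238.9, 241.8 and 231.9 CPM in TACI short, 98.86, 98.26 and 98.57 CPM in TACI long and 101.7, 98.98 and 99.63 CPM in control. The TACI short libraries lay above all others, and the TACI long libraries sat just under the lowest control. The log2 fold change was 1.12 ± 0.04 in TACI short over control (2.17-fold; edgeR adjusted p = 2.09e-16) and 1.14 ± 0.04 in TACI short over TACI long (2.2-fold; edgeR adjusted p = 5.77e-17). In TACI long over control it was -0.02 ± 0.04, with a 95% interval of -0.11 to 0.06 (edgeR adjusted p = 0.717), so the narrow gap between those groups in CPM did not pass the test.

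TNIP2 encodes ABIN2, an A20 partner that also holds the kinase TPL2 in a complex with NF-kB p105 (ENSG00000168884, chromosome 4, 2741648 to 2756376, minus strand). It had 58.35, 57.14 and 56.95 CPM in TACI short, 27.91, 28.38 and 31.84 CPM in TACI long and 41.52, 41.42 and 39.52 CPM in control. The 3 groups did not overlap, with TACI short above control and TACI long below it. TACI short over control was 0.37 ± 0.05 on the log2 scale (1.29-fold; edgeR adjusted p = 2.15e-06) and TACI long over control -0.47 ± 0.05 (1.39-fold lower; edgeR adjusted p = 1.15e-07). The difference between the isoforms, tested directly, was 0.84 ± 0.05 (1.79-fold; edgeR adjusted p = 2.39e-12). Among the 10 members, only TNIP2 was called in opposite directions in the comparisons with control.

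TAX1BP1 encodes a ubiquitin-binding adaptor that brings A20 to its substrates and serves as an autophagy receptor (ENSG00000106052, chromosome 7, 27739331 to 27844564, plus strand). It had 106.1, 106.1 and 112.7 CPM in TACI short, 89.14, 91.96 and 91.73 CPM in TACI long and 92.13, 98.68 and 93.18 CPM in control. TACI short was above both other groups in CPM, yet the fitted difference from control, 0.07 ± 0.04, was not called (edgeR adjusted p = 0.19). CPM uses the library total and the fit uses TMM factors, which were 1.03 to 1.096 in TACI short and 0.9621 to 0.9796 elsewhere, so ratios of CPM run higher than the fitted folds in TACI short. With upper-quartile factors the TACI short difference from control was called (0.15, edgeR adjusted p = 0.00211). TACI short over TACI long was 0.12 ± 0.04 (edgeR adjusted p = 0.0169), and that call was lost in 8 of 18 alternatives, among them leaving out any TACI long library, any control library or TACI short replicate 3 (adjusted p up to 0.174). TACI long over control was -0.06 ± 0.04 (edgeR adjusted p = 0.314).

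Among the deubiquitinases outside the A20 complex, CYLD removes linear and lysine-linked chains from NEMO and other signalling proteins and was found through a hereditary skin tumour syndrome (ENSG00000083799, chromosome 16, 50742050 to 50801935, plus strand). It had 35.15, 34.75 and 34.96 CPM in TACI short, 26, 27.17 and 26.21 CPM in TACI long and 21.11, 23.51 and 21.77 CPM in control. The 3 groups were ordered without overlap, with TACI short highest and control lowest. CYLD rose in both lines: by 0.53 ± 0.05 in TACI short over control (1.45-fold; edgeR adjusted p = 4.23e-09) and by 0.26 ± 0.05 in TACI long over control (1.2-fold; edgeR adjusted p = 0.000192). TACI short also exceeded TACI long, by 0.27 ± 0.05 (edgeR adjusted p = 5.26e-05). CYLD was the only member called higher in both lines. OTUD7B (Cezanne), an A20-like deubiquitinase that acts on TRAF3 in the non-canonical pathway, was called in none of the 3 comparisons (ENSG00000264522, chromosome 1, 149937812 to 150010676, minus strand). It had 15.59, 17.11 and 15.97 CPM in TACI short, 13.68, 15.11 and 14.97 CPM in TACI long and 14.91, 15.96 and 15.82 CPM in control. TACI short and TACI long each overlapped control. Its 95% intervals were -0.20 to 0.06 in TACI short over control, -0.22 to 0.04 in TACI long over control and -0.11 to 0.15 in TACI short over TACI long.

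Promoter windows are shown for TNFAIP3, TNIP1 and CYLD because all 3 rose in TACI short cells and each holds a match to the NF-kB consensus. They run from 250 bases before to 50 bases after a RefSeq start (build GRCh38.p14), each 300 bases long and written along the gene's strand, with the consensus matches in capitals. The TNFAIP3 window is chr6:137867009-137867308 (plus strand), the second of the TNIP1 windows is chr5:151080985-151081284 (minus strand) and the second of the CYLD windows is chr16:50741836-50742135 (plus strand).
TNFAIP3: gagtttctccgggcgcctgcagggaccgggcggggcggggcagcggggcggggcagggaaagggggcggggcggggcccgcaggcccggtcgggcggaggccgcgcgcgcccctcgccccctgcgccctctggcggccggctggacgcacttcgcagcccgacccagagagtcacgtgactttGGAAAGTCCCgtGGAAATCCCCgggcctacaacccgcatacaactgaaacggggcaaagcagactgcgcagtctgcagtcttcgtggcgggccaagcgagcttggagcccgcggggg
TNIP1: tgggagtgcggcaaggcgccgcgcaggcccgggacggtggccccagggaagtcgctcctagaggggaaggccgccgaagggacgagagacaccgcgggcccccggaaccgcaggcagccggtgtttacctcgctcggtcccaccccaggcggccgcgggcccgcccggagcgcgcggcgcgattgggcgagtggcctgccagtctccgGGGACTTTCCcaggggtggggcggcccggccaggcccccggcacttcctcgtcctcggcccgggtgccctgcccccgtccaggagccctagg
CYLD: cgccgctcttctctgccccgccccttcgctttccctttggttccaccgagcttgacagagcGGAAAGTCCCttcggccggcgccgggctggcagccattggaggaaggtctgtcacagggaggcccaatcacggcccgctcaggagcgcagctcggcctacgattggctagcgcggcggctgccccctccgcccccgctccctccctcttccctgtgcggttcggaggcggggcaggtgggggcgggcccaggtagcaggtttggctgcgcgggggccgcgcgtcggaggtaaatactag
The same 10 letters, GGGACTTTCC, occur in all 3: on the gene's strand 42 bases before the start in TNIP1, and on the other strand, where they read GGAAAGTCCC, 67 bases before the start in TNFAIP3 and 189 before it in CYLD. TNFAIP3 holds a second match, GGAAATCCCC, 55 bases before its start, and CYLD has another, GGGGCTTCCC, whose first base is the RefSeq start of another of its windows, which is not shown. This run was noticed after the windows were read and picked because the members share it, so its share of genes is no test. On either strand it occurs in 62 of 27305 genes with a window (0.227%). Any match to the consensus occurs in 3619 of them (13.3%) and in 3 of the 8 members whose windows were used. The wider pattern of 3 G, any 5 bases and 2 C, on either strand, which takes in the consensus, was in 7 of the 8 members and in 61.7% of all genes. TNIP2, TAX1BP1, OTUD7B, CHUK and IKBKG held no consensus match in these windows; windows of IKBKB and IER3 were not used here. A match describes the letters only and does not show that NF-kB binds there.

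The IKK subunits moved little and not together. CHUK, the catalytic subunit that also drives processing of NF-kB p100 (ENSG00000213341, chromosome 10, 100188298 to 100229619, minus strand), had 54.59, 52.73 and 53.81 CPM in TACI short, 61.37, 62.42 and 64.22 CPM in TACI long and 61.67, 66.31 and 64.02 CPM in control. TACI short lay below both other groups, which overlapped. It fell in TACI short over control by 0.38 ± 0.05 on the log2 scale (1.3-fold lower; edgeR adjusted p = 1.96e-07) and was lower than in TACI long by 1.28-fold (edgeR adjusted p = 4.87e-07). TACI long over control was -0.03 ± 0.05, with a 95% interval of -0.12 to 0.07 (edgeR adjusted p = 0.657).

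IKBKB, the kinase that phosphorylates IkB in the canonical pathway, took the other pattern (ENSG00000104365, chromosome 8, 42271302 to 42332653, plus strand). It had 27.54, 29.39 and 26.56 CPM in TACI short, 18.6, 19.45 and 19.28 CPM in TACI long and 24.91, 25.67 and 24.24 CPM in control. Every TACI long library lay below every other library, and TACI short lay above control. Scaled with TMM factors, TACI short (26.75, 26.85 and 25.06 CPM) and control (25.91, 26.23 and 24.97 CPM) overlapped. TACI long over control was -0.38 ± 0.05 (1.3-fold lower; edgeR adjusted p = 1.52e-06), and TACI short over TACI long was 0.41 ± 0.05 (1.33-fold; edgeR adjusted p = 2.5e-07). TACI short over control was 0.03 ± 0.05, with a 95% interval of -0.08 to 0.13 (edgeR adjusted p = 0.646); it was called with upper-quartile factors (0.11, edgeR adjusted p = 0.0448). Against control, CHUK was called lower in TACI short and IKBKB in TACI long, and the direct tests between the lines gave opposite directions for these kinases.

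IKBKG encodes NEMO, the subunit that reads ubiquitin chains (ENSG00000269335, chromosome X, 154541199 to 154565046, plus strand). It had 4.815, 4.464 and 5.272 CPM in TACI short, 5.105, 5.439 and 5.655 CPM in TACI long and 5.87, 5.832 and 5.808 CPM in control, from 180 to 271 counts a library. Every TACI short library lay below every control library, while TACI short and TACI long overlapped. TACI short over control was -0.39 ± 0.10 (1.31-fold lower; edgeR adjusted p = 0.00209) and TACI long over control -0.11 ± 0.10 (edgeR adjusted p = 0.401). TACI short over TACI long was -0.28 ± 0.10 (edgeR adjusted p = 0.0193), a call that was lost in 5 of 18 alternatives, leaving out TACI long replicate 3 or TACI short replicate 2 among them (adjusted p up to 0.0898). IKBKG has a near-identical pseudogene, IKBKGP1, with 0 or 1 counts a library, so its level is uncertain.

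**Figure D2:**
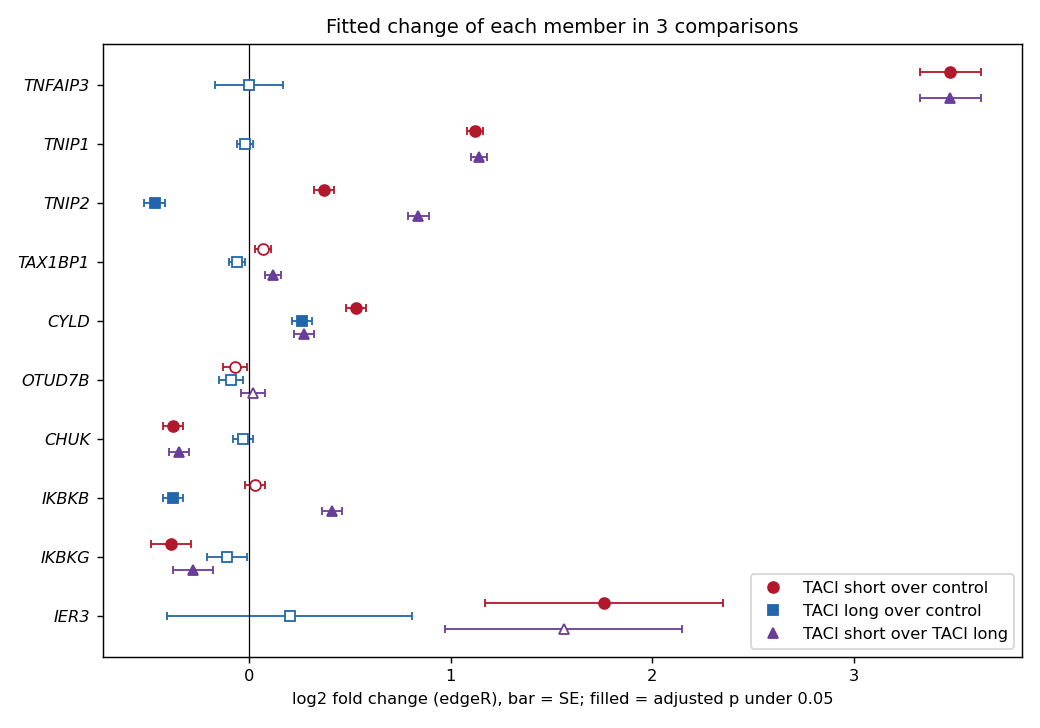
Fitted log2 fold change of each member with its SE in TACI short over control (circles), TACI long over control (squares) and TACI short over TACI long (triangles), where filled marks have an adjusted p under 0.05. TNFAIP3 stands at 3.48 in both comparisons with TACI short in the numerator and at 0 in TACI long over control, and IER3 has the widest bars.

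IER3, an immediate early gene induced by NF-kB and by stress, was high in only some TACI short libraries (ENSG00000137331, chromosome 6, 30743199 to 30744554, minus strand). It had 1.913, 8.903 and 9.864 CPM in TACI short, 2.269, 2.171 and 1.9 CPM in TACI long and 1.348, 1.791 and 2.4 CPM in control. TACI short replicate 1 lay within the range of control, and replicates 2 and 3 lay above every other library. TACI short over control was 1.76 ± 0.59 (3.38-fold; edgeR adjusted p = 0.0395), and with the replicate number as a block it was 1.64 (edgeR adjusted p = 0.0647). Without TACI short replicate 1 it was 2.19 (edgeR adjusted p = 9.05e-14), and with replicate 1 as the only TACI short library it was -0.04 (edgeR adjusted p = 0.908). Leaving out any single one of the other 8 libraries also ended the call, with adjusted p between 0.0645 and 0.119. TACI short over TACI long was 1.56 ± 0.59 (edgeR adjusted p = 0.0525) and TACI long over control 0.20 ± 0.61 (edgeR adjusted p = 0.835), and neither was called.

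The summed level of 10 myeloid markers of a fixed list was high in the same TACI short libraries as IER3. It came to 28.9, 129 and 125 CPM in TACI short, 29.8, 23 and 15.6 CPM in TACI long and 11.8, 22.3 and 22.4 CPM in control. In TACI short over control 5 of the 9 tested were called higher (AIF1, CSF1R, LYZ, CD14 and ITGAM), against 31.5% of all genes. Among the 9, 0 were lower, against 31.1%. In TACI long over control 0 of the 9 were called, against 25.2% higher and 25.9% lower of all genes. MRC1 was at 0 in 7 libraries. The integrin ITGAM had 3.443, 23.44 and 23.54 CPM in TACI short, 5.483, 4.847 and 3.059 CPM in TACI long and 2.152, 3.674 and 4.543 CPM in control. The receptor CSF1R had 20.25, 57.76 and 56.71 CPM in TACI short, 11.39, 7.852 and 5.609 CPM in TACI long and 3.848, 8.242 and 8.723 CPM in control, so unlike IER3 it was above the other groups in TACI short replicate 1 as well. Of the 8 epithelial and fibroblast markers 4 were tested, and in TACI short over control 1 was called higher and 2 lower. The 2 called lower were EPCAM (log2 -0.49, edgeR adjusted p = 1.48e-09) and DCN (log2 -0.45, edgeR adjusted p = 0.0239). DCN was not highest in replicates 2 and 3 together, at 2.43, 2.009 and 2.436 CPM in TACI short and 2.848, 2.755 and 3.022 CPM in control. The collagen gene COL1A1 had 3.24, 10.99 and 10.2 CPM in TACI short, 2.552, 2.347 and 1.53 CPM in TACI long and 1.5, 2.112 and 2.615 CPM in control, highest in TACI short replicates 2 and 3, and was 3.56-fold higher in TACI short than in control (edgeR adjusted p = 0.0172). COL1A2 was also highest there, at 0.6526, 3.993 and 4.113 CPM in TACI short against 0.5099 to 0.9926 CPM in TACI long and 0.9131 to 1.436 CPM in control, but was not called (edgeR adjusted p = 0.158). The part of any of these markers in the IER3 level was not tested. TNFAIP3, TNIP1, TNIP2 and CYLD did not split that way: TACI short replicate 1 had 39.6 CPM of TNFAIP3, and with it alone the fitted change over control was 1.16 for TNIP1, 0.43 for TNIP2 and 0.58 for CYLD. With replicate 1 alone, 4 members were called higher in TACI short over control, against 27% of the 17628 genes tested in that fit, and 2 lower, against 24.8%. In TACI short over TACI long 6 were then higher, against 30.6%, and 1 lower, against 28.7%. IER3 also shares 359 exon bases (26.5%) with the antisense RNA IER3-AS1, which stood at 0.719 to 1.24 CPM in TACI short, 0.833 to 1.18 CPM in TACI long and 0.857 to 1.17 CPM in control; without strand, reads there cannot be told apart.

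**Figure D3:**
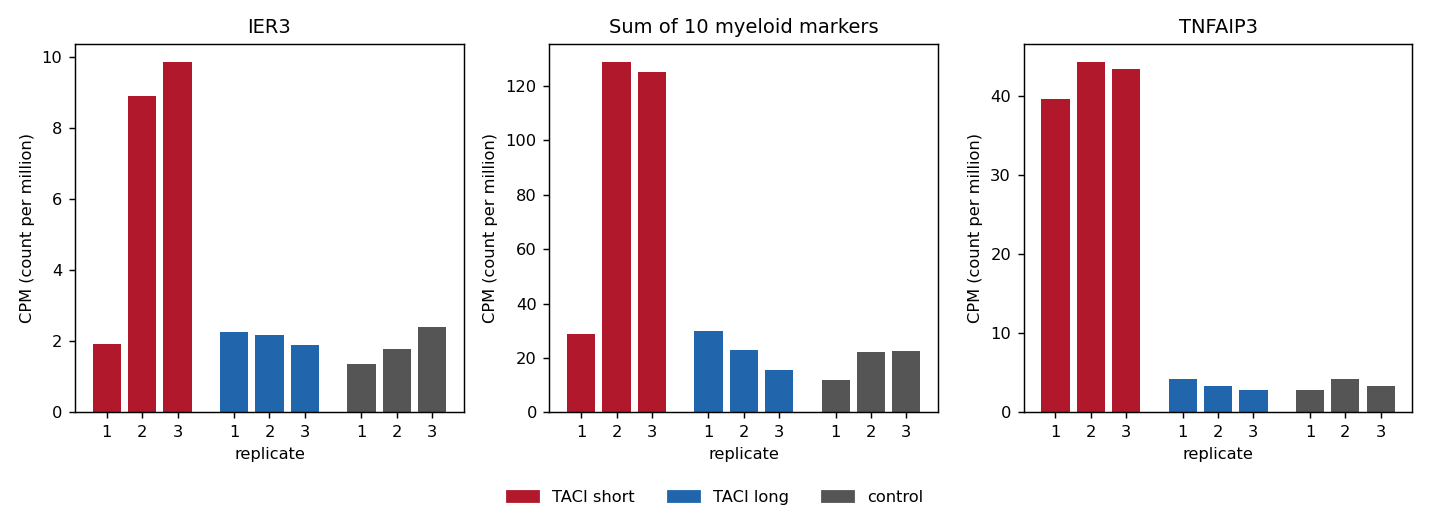
CPM of IER3, of 10 summed myeloid markers and of TNFAIP3 in each of the 9 libraries, with bars from 0 grouped by TACI short, TACI long and control. IER3 and the marker sum are high in TACI short replicates 2 and 3 alone, while TNFAIP3 is high in all 3 TACI short libraries.

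Levels were compared between genes as CPM per kilobase of the deposited gene length, which counts the merged exons of all transcripts. TNIP1 led in every group, at 41.0 in TACI short, 17.0 in TACI long and 17.3 in control, in CPM per kilobase. TNIP2 came next, at 21.4 in TACI short, 10.9 in TACI long and 15.2 in control, and then TAX1BP1, at 11.8 in TACI short, 9.92 in TACI long and 10.3 in control. TNFAIP3 came after these in TACI short, at 8.4 ± 0.496 CPM per kilobase, where it overlapped CHUK at 7.75 ± 0.135 (SD, n = 3 each). It ranked last of the 10 in TACI long, at 0.686 ± 0.139, and in control, at 0.689 ± 0.138 CPM per kilobase, and did not overlap the member above it in either group. Of the IKK subunits, CHUK was highest per kilobase in every group, at 7.75 in TACI short, 9.05 in TACI long and 9.24 in control, in CPM per kilobase. IKBKB stood at 2.72 in TACI short, 1.87 in TACI long and 2.44 in control, and IKBKG at 1.37 in TACI short, 1.53 in TACI long and 1.65 in control. CYLD and IKBKB changed places: CYLD was above IKBKB in TACI long, at 2.04 against 1.87, below it in control, at 1.71 against 2.44, and overlapped it in TACI short. Neighbours in this order also overlapped in other places: IER3 with IKBKB and IKBKG with OTUD7B in TACI short, IER3 with IKBKG in TACI long, and CYLD with IKBKG, IKBKG with IER3 and IER3 with OTUD7B in control.

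**Figure D4:**
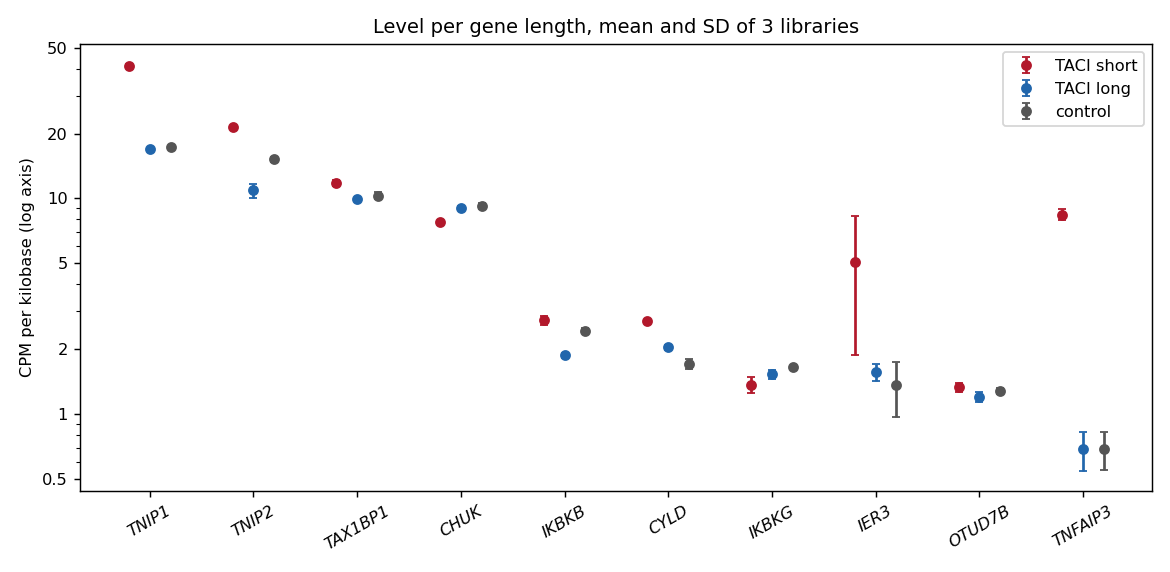
Level of each member per gene length (CPM per kilobase, log axis), as the mean and SD of 3 libraries for TACI short, TACI long and control, ordered by the control level. TNFAIP3 is last in control and TACI long and stands near CHUK in TACI short.

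Another 6 lists of genes of the pathway were read in the same fit. Of all genes tested, 31.5% were called higher and 31.1% lower in TACI short over control. The shares were 25.2% and 25.9% in TACI long over control, and 35.2% and 33.6% in TACI short over TACI long. No test here sets the counts of a list apart from these shares. Of the A20 partners and ubiquitin-binding adaptors, 9 of 10 were tested; TNIP3, which encodes ABIN3, was not, with at most 0.0496 CPM in any library. In TACI short over control 4 of the 9 rose and 1 fell, with a median log2 fold change of 0.26, and in TACI long over control 1 rose and 5 fell, with a median of -0.23. OPTN encodes optineurin, a ubiquitin-binding adaptor that competes with NEMO for chains. It had 30.96, 29.04 and 31.63 CPM in TACI short, 3.19, 2.522 and 2.41 CPM in TACI long and 7.261, 7.117 and 7.437 CPM in control. The 3 groups did not overlap: OPTN rose 3.84-fold in TACI short over control (log2 1.94 ± 0.08; edgeR adjusted p = 1.97e-15) and was 2.69-fold lower in TACI long than in control (log2 -1.42 ± 0.09; edgeR adjusted p = 1.1e-11). TANK, an adaptor of TBK1, had 88.68, 88.81 and 92.01 CPM in TACI short, 33.58, 32.83 and 31.2 CPM in TACI long and 38.61, 37.15 and 38.66 CPM in control, and rose 2.15-fold in TACI short over control (edgeR adjusted p = 2.88e-15). CALCOCO2, an autophagy receptor, rose 1.48-fold in TACI short (edgeR adjusted p = 4.8e-10). SQSTM1 (p62) had 187.4, 188.5 and 182.8 CPM in TACI short, 102.8, 104.7 and 101.2 CPM in TACI long and 181.6, 183.2 and 179.4 CPM in control, and was 1.76-fold lower in TACI long than in control (edgeR adjusted p = 4.92e-14). TBKBP1, a TBK1 adaptor, was 1.48-fold lower in TACI long (edgeR adjusted p = 2.37e-06). In TACI short over TACI long 6 of the 9 were higher and 2 lower, with a median of 0.61, led by OPTN at 10.3-fold (edgeR adjusted p = 3.11e-19).

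Of the 5 genes that write or erase linear ubiquitin, 0 rose and 3 fell in TACI short over control. The shares of all genes tested were 31.5% higher and 31.1% lower. Those 3 fell by at most 0.28 on the log2 scale (RNF31, RBCK1 and SHARPIN, the subunits of the linear ubiquitin ligase). With upper-quartile factors that comparison had 1 higher and 1 lower, against 37.9% and 26% of all genes. In TACI long over control 1 rose and 2 fell; the eraser OTULIN rose by 0.46 ± 0.04 (1.37-fold; edgeR adjusted p = 7.3e-09). Of 14 ligases, conjugating enzymes, TAK1 complex genes and other adaptors upstream of IKK, 3 rose and 5 fell in TACI short over control. The shares of all genes were 31.5% and 31.1% there. In TACI long over control 5 rose and 2 fell, against 25.2% and 25.9% of all genes. With upper-quartile factors the balance in TACI short over control turned, to 5 higher and 3 lower, against 37.9% and 26% of all genes. BIRC3 (cIAP2), a ligase and NF-kB target, had 717.6, 701.8 and 694.7 CPM in TACI short, 88.95, 89.57 and 88.97 CPM in TACI long and 82.59, 81.64 and 80.45 CPM in control. It rose 7.9-fold in TACI short over control (log2 2.98 ± 0.04; edgeR adjusted p = 1.39e-23) and 1.09-fold in TACI long over control (edgeR adjusted p = 0.014). UBE2N (Ubc13), which builds lysine-linked chains, fell by 0.52 on the log2 scale in TACI short over control, and BCL10, an adaptor that binds MALT1, rose by 0.54 there. In TACI long over control BCL10 rose by 0.36.

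Of 6 IKK-related kinases and IKK chaperone genes, 2 rose and 3 fell in TACI short over control. With upper-quartile factors 3 rose and 3 fell there, against 37.9% and 26% of all genes. In TACI long over control 1 rose and 3 fell. Of all genes tested, 31.5% were higher and 31.1% lower in TACI short over control, and 25.2% and 25.9% in TACI long over control. MAP3K14 (NIK), the kinase upstream of CHUK in the non-canonical pathway, rose 1.83-fold in TACI short (edgeR adjusted p = 5.42e-12) and was not called in TACI long (log2 -0.06, edgeR adjusted p = 0.429). IKBKE, an IKK-related kinase, had 87.31, 86.6 and 83.79 CPM in TACI short, 74.68, 72.27 and 75.37 CPM in TACI long and 50.02, 46.54 and 46.03 CPM in control, and was called higher in both lines, 1.65-fold in TACI short (edgeR adjusted p = 7.53e-12) and 1.56-fold in TACI long (edgeR adjusted p = 1.08e-10). HSP90AB1, a chaperone of IKK, had 1960, 1923 and 2002 CPM in TACI short, 2590, 2660 and 2669 CPM in TACI long and 3097, 3029 and 3086 CPM in control, and was 1.71-fold lower in TACI short and 1.16-fold lower in TACI long. Of 11 other OTU-family deubiquitinases, 9 were tested; 2 rose and 4 fell in TACI short over control, and 2 rose and 1 fell in TACI long over control, where YOD1 rose 1.43-fold (edgeR adjusted p = 3.2e-09). The median log2 fold change of the 9 was -0.12 in TACI short over control and 0.09 in TACI long over control, against 0.03 and 0.00 over all genes.

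Of the 11 NF-kB subunits and IkB proteins, 8 rose and 1 fell in TACI short over control, against 31.5% and 31.1% of all genes. The median was 1.40 there, against 0.03 over all genes. In TACI long over control 2 rose and 7 fell, against 25.2% and 25.9%, with a median of -0.13 against 0.00. With DESeq2 size factors 2 rose and 5 fell there, against 26% and 25.3% of all genes. NFKBIA, the IkB that IKK targets and an NF-kB target itself, had 97.59, 101.5 and 98.58 CPM in TACI short, 19.26, 19.32 and 18.24 CPM in TACI long and 14.83, 14.53 and 14.1 CPM in control. It rose 6.26-fold in TACI short over control (edgeR adjusted p = 4.6e-22) and 1.31-fold in TACI long over control (edgeR adjusted p = 8.35e-07). NFKB2, which encodes p100, rose 3.68-fold in TACI short and was 1.35-fold lower in TACI long, and BCL3, a nuclear IkB protein, rose 8.51-fold in TACI short and was not called in TACI long (log2 0.03, edgeR adjusted p = 0.841). NFKB1, which encodes p105, was 1.53-fold lower in TACI long than in control and 1.85-fold higher in TACI short. BIRC3 and NFKBIA were as high in TACI short replicate 1 as in replicates 2 and 3, the libraries with more myeloid marker counts.

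**Figure D5:**
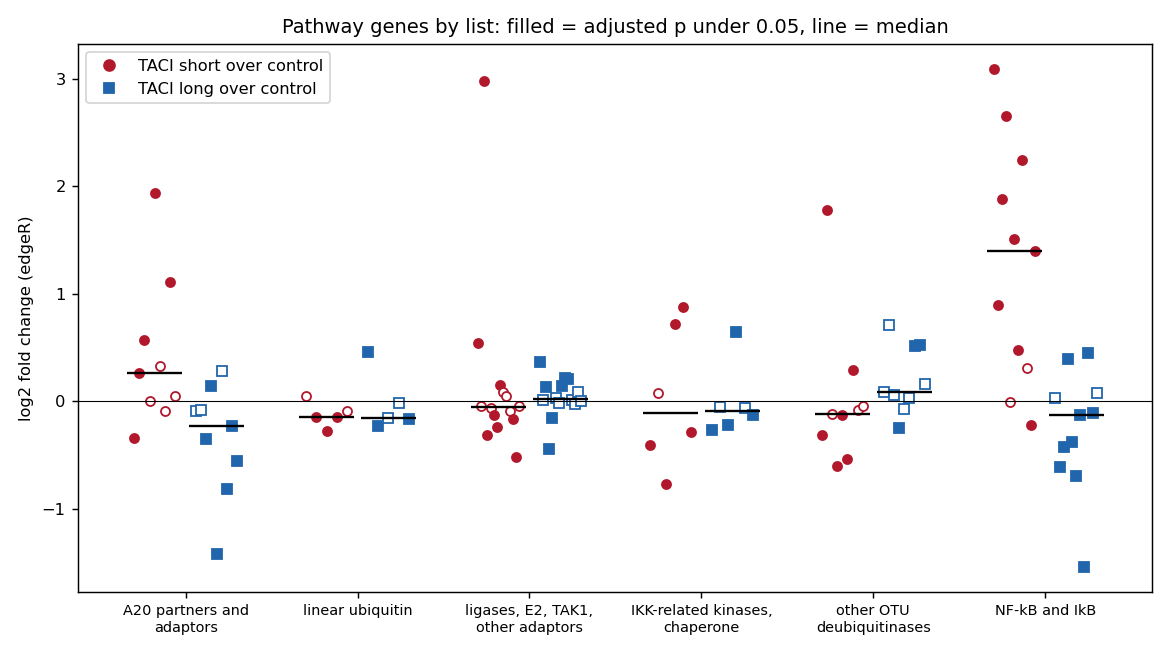
Fitted log2 fold change of every tested gene of 6 pathway lists in TACI short over control (circles) and TACI long over control (squares), with filled marks at an adjusted p under 0.05 and a line at each list's median. The NF-kB and IkB list has its TACI short median at 1.40, while the medians of the other lists lie between -0.23 and 0.26.

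Genes whose pattern over the 9 libraries was most like that of 4 members were found by the distance between log2 CPM profiles, each centred on its own mean, among genes whose log2 CPM averaged 1 or more. Nearest to TNFAIP3 were RUBCNL (distance 0.63), SSTR2 (0.68), SCN4A (0.71) and NEDD4L (0.74). NEDD4L had 140, 136 and 131 CPM in TACI short, 12.6, 13.8 and 13.3 CPM in TACI long and 13.3, 14 and 14.1 CPM in control. Nearest to TNIP1 were SLC39A11 (0.16), ERBB2 (0.16), EHHADH (0.19) and EIF3J-DT (0.20), and nearest to CYLD were LANCL1 (0.11), BCHE (0.11), S100PBP (0.12) and PLEKHA8 (0.13). Nearest to IER3 were CD109 (0.56), LCP2 (0.62), GDF15 (0.63) and PHLDA1 (0.63). GDF15 had 6.12, 33 and 29.8 CPM in TACI short, 6.74, 6.21 and 4.89 CPM in TACI long and 3.07, 5.99 and 6.13 CPM in control, low in TACI short replicate 1 as IER3 was. These distances describe 9 libraries of 3 groups, and any gene that differs between the groups by like amounts comes out near.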

How the data were processed

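RNA counts per gene of 9 libraries (TACI short, TACI long and control, 3 each) were used as the authors deposited them, with no normalization. Per the submitters' processing notes, FastQC, STAR 2.4.0h and HTSeq were used with build hg38; per the file headers, the columns are laid out as featureCounts writes them, and the gene lengths there are the authors' merged exon lengths. The annotation release and the strand setting are not given in the sources used here. Per the labels, polyadenylated RNA of sorted cells with an integrity number above 8 went into Nextera XT libraries, which do not mark strand. Of 57500 gene IDs, 56410 matched a symbol in the gene name table and 56898 were in GENCODE release 29. Shared exon bases were counted on the exon positions that the authors deposited with the counts.

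CPM is the count over the library total. Genes were kept by filterByExpr (minimum count 10, minimum total 15), scaled with TMM factors and tested in edgeR 4.0.16 (R 4.3.3) by a robust quasi-likelihood fit to the 9 libraries together, which leaves 6 residual degrees of freedom, at a common biological coefficient of variation of 0.0792 and with Benjamini-Hochberg adjustment over 16672 genes. Standard errors are the absolute log2 fold change over the square root of the F statistic, and 95% intervals use the same test's degrees of freedom. The fit was tested on simulated data. Every pair of replicates differed by more than sampling noise (chi-square per degree of freedom 2.45 to 18.18). The members and lists were chosen with earlier results of these data known. Named genes are all members, TNFRSF13B, up to 3 called genes of a list and comparison by adjusted p, and the 4 genes nearest to TNFAIP3, TNIP1, CYLD and IER3; the text prints a part of them, some with values from other comparisons beside them, and a few items are not reported here. ITGAM, CSF1R, COL1A1, COL1A2, DCN, EPCAM and the called myeloid markers were chosen outside that rule. So were WAKMAR2 and the other genes that share exon bases with a member. Myeloid and B-cell lists held 10 and 7 genes; lists of 7 T and NK cell genes and 8 epithelial and fibroblast genes summed to 11.2 to 16.2 CPM and 83.3 to 120 CPM over the 9 libraries; EPCAM made up 73.38 to 116.4 CPM of the second sum. Same-numbered TACI short and control libraries deviated together from their group means (correlation 0.63, 0.42 and 0.33), which passes the minimum of 0.1 set for pairing. TACI short replicate 2 with control replicate 3 (0.45) and TACI short replicate 3 with control replicate 2 (0.35) correlated as much, so the check sets replicate 1 apart and does not pair replicates 2 and 3 one by one; the labels name no shared day. For TACI long no pairing was seen. The alternatives used upper-quartile factors, the size factors of DESeq2 1.42.0, the DESeq2 Wald test, limma-voom (limma 3.58.1), other filters, the groups compared alone, the replicate block, each library left out and TACI short replicate 1 alone in its group. Promoter sequences are RefSeq's, matched by symbol, and windows of 8 of the 10 members were used. Figures were drawn with matplotlib 3.10.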

Additional observations from a re-analysis of the deposited data

Results flagged for a closer look

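TNIP2, the gene of the A20 partner ABIN2, differed between the isoforms: it was higher than control in TACI short and lower than control in TACI long, and the direct test of TACI short over TACI long gave a log2 fold change of 0.84 (edgeR quasi-likelihood test, Benjamini-Hochberg adjusted p = 2.39e-12). All 3 TACI short libraries lay above and all 3 TACI long libraries below every control library. Over 18 alternatives the value lay between 0.79 and 0.93. The amount of TNFRSF13B RNA differs between the lines as well, and its part in this was not tested.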

How the results depend on the processing

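TNFAIP3, TNIP1, TNIP2, CYLD, OTUD7B and CHUK kept their direction where called, and their side of the threshold, under all 18 alternatives in each comparison: TNFAIP3 in TACI short over control lay between 3.35 and 3.61 on the log2 scale, TNIP1 between 1.08 and 1.20, CYLD between 0.49 and 0.61 and CHUK between -0.42 and -0.30. IER3 in TACI short over control kept its call in 5 of 18 and turned to -0.04 with TACI short replicate 1 alone; leaving out 1 library at a time gave 1.40 to 2.19. TAX1BP1 in TACI short over control was also called with at least 1 CPM in 3 libraries (0.10, adjusted p = 0.0181) and without TACI short replicate 2 (0.11, adjusted p = 0.0272). Members called stayed at 3 in TACI long over control, and lay between 6 and 9 in both comparisons of TACI short. The share of all genes called moved with the setting. In TACI long over control it ran from 9.38% to 32.3% higher and from 9.46% to 31.7% lower. It ran from 14.6% to 37.9% and from 12.3% to 36% in TACI short over control. In TACI short over TACI long it ran from 16.4% to 40.9% and from 13.6% to 39.2%. No test sets the counts of members or lists apart from these shares. Of the lists, linear ubiquitin in TACI short over TACI long (1 gene called) had 2 with DESeq2 size factors, 3 with upper-quartile factors, 2 with at least 1 CPM in 3 libraries and 1 to 3 with 1 library left out; in TACI short over control (3 called) it had 0 with TACI short replicate 1 alone and 1 to 4 with 1 library left out, the 1 without TACI short replicate 3. The other OTU deubiquitinases in TACI long over control (3 called) had 5 with at least 1 CPM in 3 libraries, with only the groups compared and with TACI short replicate 1 alone, and the ligase and TAK1 list there (7 called) had 4 to 8 with 1 library left out, the 4 without TACI long replicate 1. Upper-quartile factors turned the balance of calls in the ligase and TAK1 list in both comparisons of TACI short. Over control it had 5 higher and 3 lower, against 37.9% and 26% of all genes. Over TACI long it had 5 higher and 1 lower, against 40.9% and 28.6%. With TMM it had 3 higher and 5 lower in each. The TMM shares of all genes were 31.5% and 31.1% over control, and 35.2% and 33.6% over TACI long. The cause of the turn was not tested. With the replicate block, which takes libraries by number, members called were 6 in TACI short over control; the IER3 call there (1.64, adjusted p = 0.0647) was the only call of a member that it changed. Upper-quartile factors raised the median of all genes by 0.08 in TACI short over control and by 0.09 in TACI short over TACI long, and 59.3% of called genes were then higher in TACI short than in control, against 50.4% with TMM. IKBKG, with 180 to 271 counts, and IER3 are limited by depth and by spread between libraries. Where an alternative left 1 library in a group, that library was assumed to vary like the other groups.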
